A study of Mus musculus with 12 samples.

Results

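A set of 50 Wnt pathway genes was followed in cultured mouse mesenchymal stem cells (MSCs): 12 ligands, 15 receptors and co-receptors, 9 secreted inhibitors, 4 genes of the R-spondin system, 6 feedback or destruction-complex genes and 4 DNA-binding partners of β-catenin. The genes are listed by name for their known place in the pathway, but the list was drawn up with earlier results of these data known. All 50 had a row in the deposited table of 55401 genes. Bone marrow MSCs of C57BL/6 mice, bought from 1 supplier, were left untreated (Control), treated with TGF-β1 at 5 ng/mL (TGFb1), or treated with TGF-β1 together with supernatant (sup) of M-MDSCs (TGFb1_M) or of G-MDSCs (TGFb1_G). M-MDSCs and G-MDSCs are the monocytic and granulocytic kinds of myeloid-derived suppressor cell. Per the methods of the study, they were induced from C57BL/6 bone marrow with GM-CSF and IL-6, sorted by flow cytometry and cultured to give the supernatants. Each of the 4 groups held 3 poly(A) RNA-seq libraries, so 12 in all. No source says that the 3 libraries of a group came from separate cultures, so the p-values measure only the spread between these libraries, which may be technical.

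Wnt proteins are lipid-modified secreted ligands that bind Frizzled receptors. With the co-receptors Lrp5 or Lrp6 they stop the destruction complex, built around Axin, from breaking down β-catenin, which then works with TCF/LEF factors in the nucleus. Ror1, Ror2 and Ryk carry signals that do not need β-catenin, Dickkopf and Sfrp proteins restrain the pathway outside the cell, and R-spondins prolong it by keeping Rnf43 and Znrf3 from removing Frizzled from the membrane. TGF-β1 turns stromal cells towards myofibroblasts, and both pathways are studied together in kidney fibrosis. The comparisons ask which Wnt genes differed after TGF-β1 and whether either supernatant altered them. No group received the MDSC culture medium without cells. An effect of that medium and an effect of what the MDSCs released thus cannot be told apart.

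The libraries held 73977669 to 84565450 counts each. Of 11 MSC markers, 9 were at a mean of at least 1 FPKM (fragments per kilobase of exon and per fixed number of mapped fragments) in Control and 10 in each other group, while Eng stayed below 1 FPKM in all groups. The markers themselves moved after TGF-β1: of the 10 tested, 6 rose and 4 fell, with Ly6a going from 245 to 16.2 FPKM (log2 -3.86), Pdgfra falling by 1.44 and Col1a1 rising by 1.11 on the log2 scale. Kidney tubule genes (10 listed) summed to at most 0.140 FPKM in every library without supernatant, to 43.7 to 57.6 FPKM in TGFb1_G and to 12.6 to 79.2 FPKM in TGFb1_M. The 6 hepatocyte genes were at 0 in Control and TGFb1 and summed to 55.8 to 61.3 FPKM in TGFb1_G. Of 10 myeloid genes, whose cell type made the supernatants, the summed level was 26.9 to 27.9 FPKM in Control, 13.6 to 15.8 in TGFb1, 20.5 to 25.9 in TGFb1_M and 25.9 to 29.3 in TGFb1_G, mostly Cd14. Lyz2 was at most 0.191 FPKM without supernatant, at 1.68, 0.651 and 2.29 FPKM in TGFb1_M and at 2.11, 1.94 and 1.56 FPKM in TGFb1_G, higher than in TGFb1 by a log2 of 4.60 (edgeR adjusted p = 0.0262) and 4.87 (adjusted p = 0.0183). As Lyz2 reached 1 FPKM, the level for testing, only with supernatant, it could enter the test only by differing. Ly6g and Ly6c2, markers used to sort the MDSC kinds, ran the other way from Control: they were at 1.59 to 1.89 FPKM there, at 0 to 0.0930 FPKM in TGFb1 and at 0 to 0.308 FPKM with supernatant, and neither was called against TGFb1. S100a9 was at 0 without supernatant and reached 0.980 FPKM in TGFb1_M and 3.397 FPKM in TGFb1_G replicate 3, with 0 in replicates 1 and 2 of that group, while Ptprc and Itgam stayed at or below 0.0157 and 0.0927 FPKM. TGFb1_M replicate 3 stood apart from its group: Alb was at 31.6 FPKM there and at 0 in replicates 1 and 2. The part of these transcripts in the differences between groups was not tested, and results on TGFb1_M are given with and without that library where it changes a count. In bulk RNA, fewer cells of a type and less RNA per cell cannot be told apart.

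Of the 50 genes, 24 reached 1 FPKM in at least 3 libraries and were tested. These were 3 ligands, 10 receptors, 2 secreted inhibitors, 2 R-spondin genes, 3 feedback genes and all 4 nuclear factors. Wnt4 and Axin2 reached that level in Control alone, and Wnt9a and Wnt11 in the treated libraries alone, so these 4 could enter the test only by differing. The remaining 26 were low, at no more than 0.908 FPKM in any library. Sfrp5, Dkk1 and Nkd1 had 0 counts in all 12 libraries, which allows up to 3 counts per library (counting error only). That limit takes each count as 1 fragment, but 44.3% of non-zero counts up to 12 were multiples of 4, so it may be too low.

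Under TGF-β1, 14 of the 24 tested genes changed against Control at an adjusted p under 0.05 (edgeR quasi-likelihood test with Benjamini-Hochberg adjustment over 12016 genes). Of these, 4 were higher (Wnt9a, Wnt11, Lgr4 and Lef1), where 16.1% of all genes tested were called higher. The other 10 were lower (Wnt4, Fzd1, Fzd5, Fzd7, Fzd8, Ryk, Dkk2, Dkk3, Rspo2 and Axin2), where 17.9% of all genes were called lower. By the rule of the study (fold over 2 or under 0.5 and an unadjusted p under 0.05), 3 of the 24 were higher and 7 lower, where 2.6% and 4.14% of all genes passed. Leaving aside Wnt4, Wnt9a, Wnt11 and Axin2, which could enter only by differing, 2 of 20 were higher and 8 lower at the adjusted p, and 1 higher and 5 lower by the rule of the study. In either direction the adjusted p called 34% of all genes, and the median log2 fold change was -0.14 over the 24 genes and 0 over all genes tested. Against TGFb1, 1 of the 24 was called with M-MDSC sup, where 4.78% of all genes were called, and 2 with G-MDSC sup, where 5.56% were. These are shares of 4.17% and 8.33%, near those over all genes in either direction. Every one of these calls was lower, where 1.95% and 2.46% of all genes were called lower.

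The promoters of the 3 tested ligands and of Axin2 are printed. The ligands had the largest fold changes among the 24 genes, and Axin2 is a classic target of β-catenin. These are the 4 genes that could enter the test only by differing, so the filter itself favours large fold changes for them. Each window runs from 250 bases before to 50 bases after the RefSeq start site, 5′ to 3′ on the plus strand of GRCm38.p6. Capitals mark the TCF/LEF core CTTTGA or its reverse complement TCAAAG, and would mark the SMAD motif CAGACA or TGTCTG, each searched on both strands with no overlap between the motifs. The windows lie at chr4:137277385-137277684 (Wnt4), chr11:59306680-59306979 (Wnt9a), chr7:98834862-98835161 (Wnt11) and chr11:108920099-108920398 (Axin2).
Wnt4: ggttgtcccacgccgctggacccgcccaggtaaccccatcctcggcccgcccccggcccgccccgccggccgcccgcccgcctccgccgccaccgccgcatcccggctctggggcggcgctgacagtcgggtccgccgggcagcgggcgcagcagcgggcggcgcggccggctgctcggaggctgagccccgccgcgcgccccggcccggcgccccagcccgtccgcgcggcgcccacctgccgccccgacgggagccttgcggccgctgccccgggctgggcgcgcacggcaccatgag
Wnt9a: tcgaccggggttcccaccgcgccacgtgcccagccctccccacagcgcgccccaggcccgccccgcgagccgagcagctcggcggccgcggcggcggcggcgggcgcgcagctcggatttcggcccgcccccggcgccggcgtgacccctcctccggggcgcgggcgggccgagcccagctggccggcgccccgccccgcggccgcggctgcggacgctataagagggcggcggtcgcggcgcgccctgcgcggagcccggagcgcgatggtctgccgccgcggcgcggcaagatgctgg
Wnt11: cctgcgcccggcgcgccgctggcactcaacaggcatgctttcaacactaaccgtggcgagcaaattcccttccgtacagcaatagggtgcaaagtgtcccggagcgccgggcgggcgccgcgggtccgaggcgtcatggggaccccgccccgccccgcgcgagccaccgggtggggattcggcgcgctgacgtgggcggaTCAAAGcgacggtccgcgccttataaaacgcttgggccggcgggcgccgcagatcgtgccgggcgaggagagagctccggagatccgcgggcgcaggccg
Axin2: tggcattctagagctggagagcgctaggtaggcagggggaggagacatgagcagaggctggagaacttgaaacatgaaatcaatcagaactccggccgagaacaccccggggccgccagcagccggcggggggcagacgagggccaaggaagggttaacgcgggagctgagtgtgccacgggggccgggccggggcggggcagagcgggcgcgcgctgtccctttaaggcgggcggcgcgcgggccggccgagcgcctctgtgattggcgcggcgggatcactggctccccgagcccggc
GC content was 84.3% for Wnt4, 83.3% for Wnt9a, 71.3% for Wnt11 and 70.0% for Axin2, against a median of 52.7% over 32851 mouse promoters of the same length. The single match was TCAAAG in Wnt11, on the minus strand and beginning 50 bases before the start site. Of the 33 members with a promoter in that table, 4 held the TCF/LEF core (12.1%, against 16.0% of all promoters) and 2 held the SMAD motif (6.06%, against 21.0%). A match is a description of letters, and a missing match says only that these letters are not in this window.

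Among the ligands, the leading transcript changed from Wnt4 to Wnt9a. All 3 tested ligands could enter the test only by differing. Wnt4 (ENSMUSG00000036856, chr4:137277489-137299726), a ligand known for its part in kidney tubule formation, was at 2.04, 2.12 and 1.95 FPKM in Control and at 0.285, 0.222 and 0.379 FPKM in TGFb1. Every TGF-β1 library lay far below every Control library. The log2 fold change was -2.72 ± 0.21 (SE), a 6.58-fold lower level (adjusted p = 2.89e-06). Wnt4 stayed low with either supernatant, at 0.333, 0.299 and 0.321 FPKM in TGFb1_M and 0.261, 0.177 and 0.265 FPKM in TGFb1_G.

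Wnt9a (ENSMUSG00000000126, chr11:59306928-59333552), a ligand known from joint formation, was at 0.715, 0.755 and 0.821 FPKM in Control and at 3.31, 3.37 and 3.41 FPKM in TGFb1. The groups did not overlap. It rose 4.58-fold, a log2 fold change of 2.19 ± 0.17 (SE, adjusted p = 3.26e-06). Wnt11 (ENSMUSG00000015957, chr7:98835112-98853811), best known as a ligand that acts without β-catenin in cell movement, was at 0.115, 0.241 and 0.179 FPKM in Control and at 1.47, 1.48 and 1.65 FPKM in TGFb1. Again no TGF-β1 library came near a Control library. The rise was 8.77-fold, with a log2 fold change of 3.13 ± 0.24 (SE, adjusted p = 2.42e-06).

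**Figure D1:**
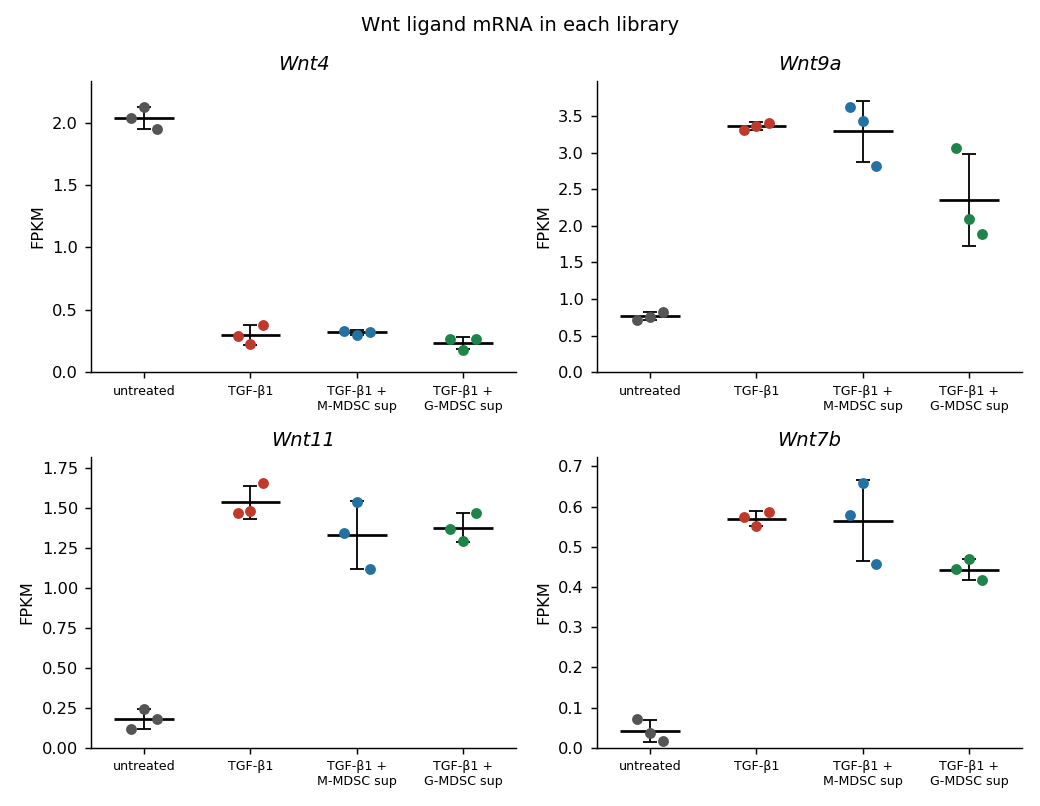
FPKM (y axis) of Wnt4, Wnt9a, Wnt11 and Wnt7b in the 4 groups (x axis; sup, supernatant); points are the 3 libraries of a group, bars the mean ± SD. Wnt4 lies near 2 FPKM only in untreated cells, while Wnt9a, Wnt11 and Wnt7b are higher in all TGF-β1 libraries than in any untreated one, with TGF-β1 plus G-MDSC sup ranging from 1.895 to 3.07 FPKM for Wnt9a.

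As FPKM is per length, the 12 ligand genes can be added up. Their sum was 3.89 ± 0.05 FPKM in Control and 6.74 ± 0.16 FPKM in TGFb1 (SD, n = 3). Wnt4 made up 52.4% ± 2.0 of that sum in Control and 4.37% ± 1.1 in TGFb1. Wnt9a made up 19.6% ± 1.3 in Control and 49.9% ± 0.59 in TGFb1, and Wnt11 went from 4.56% ± 1.6 to 22.7% ± 1.0. With the supernatants the sum was 6.22 ± 0.63 FPKM in TGFb1_M and 5.21 ± 0.70 FPKM in TGFb1_G, where every library (4.74 to 6.01 FPKM) was below those of TGFb1 (6.62 to 6.925 FPKM). Wnt9a made up 52.9% ± 1.4 of it in TGFb1_M and 44.7% ± 5.7 in TGFb1_G. Wnt7a, a ligand outside the 12, was at 0.499 to 0.958 FPKM over all libraries and did not reach the level for testing.

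**Figure D2:**
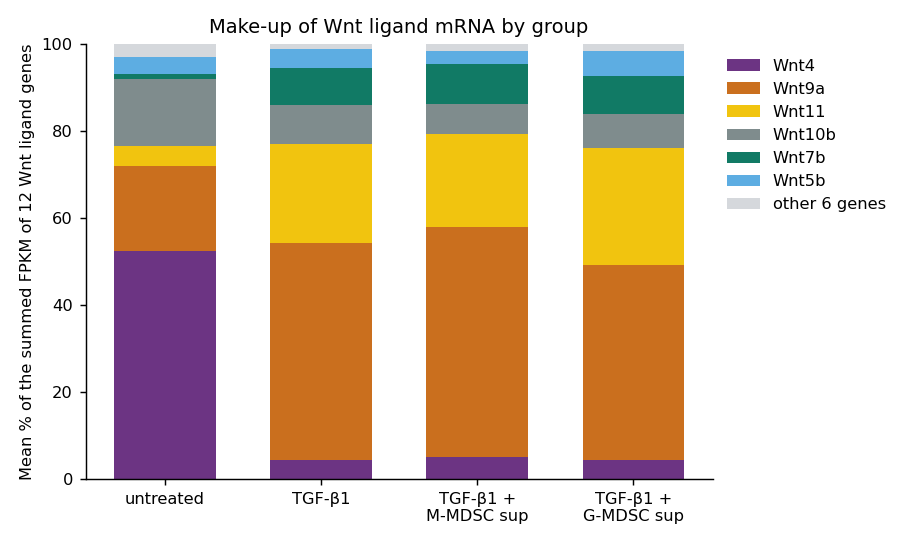
Mean percentage (y axis) of the summed FPKM of 12 Wnt ligand genes held by each gene, per group of 3 libraries (x axis; sup, supernatant). Wnt4 fills 52.4% of the untreated bar and 4.37% of the TGF-β1 bar, where Wnt9a and Wnt11 fill 49.9% and 22.7%.

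The other 9 ligands fell under the FPKM level. A fit with a count-based filter, added after the values were seen, tested 18761 genes and reached 14 of the 26 low members. In it, 4 of the 14 were called higher after TGF-β1 and 1 lower, where 11.4% and 13.2% of all genes were called. Wnt7b (chr15:85535437-85581821), a ligand active in lung and kidney medulla development, had 32, 17 and 8 counts in Control and 253, 247 and 258 in TGFb1. The separation was complete, and the log2 fold change was 3.77 with a 95% interval of 2.93 to 4.60 (edgeR adjusted p = 2.08e-05). The Control counts alone did not meet the count filter. Wnt7b, which is among the 4 called higher, thus entered this fit only through the treated libraries, where it is high. Wnt5b, with 40, 46 and 27 counts in Control and 54, 98 and 65 in TGFb1, rose by a log2 of 0.99 (0.34 to 1.64, edgeR adjusted p = 0.0297). Wnt10b, a ligand known from bone formation, did not pass the test. It had 166, 136 and 243 counts in Control and 205, 180 and 172 in TGFb1, so the groups overlapped. Wnt2b and Wnt5a did not pass either, with at most 33 counts. Wnt2, Wnt6, Wnt10a and Wnt16 were too low for this filter as well. Wnt10a had 14, 31 and 0 counts in Control and 0 in the 9 other libraries.

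Among the receptors, 5 of 10 tested were lower after TGF-β1 and the other 5 did not pass, where 17.9% of all genes tested were called lower. Fzd1 (chr5:4753839-4758035) was at 3.27, 3.55 and 3.69 FPKM in Control and 1.53, 1.64 and 1.77 FPKM in TGFb1. Fzd5 (chr1:64730558-64737751) was at 2.20, 2.05 and 2.39 FPKM in Control and 1.12, 0.913 and 0.864 FPKM in TGFb1. Fzd8 was at 5.42, 5.68 and 5.23 FPKM in Control and 2.74, 2.14 and 2.66 FPKM in TGFb1. For each of these 3 Frizzled genes the groups were well apart, and the level after TGF-β1 was under 0.5 of that in Control. The log2 fold changes were -1.03 ± 0.09 for Fzd1 (adjusted p = 9.32e-06), -1.14 ± 0.12 for Fzd5 (adjusted p = 2.18e-05) and -1.06 ± 0.10 for Fzd8 (adjusted p = 9.64e-06), each with its SE. Fzd5 shares 17.8% of its exon bases with the antisense gene Gm38058, which had at most 24 counts, where Fzd5 had 534 to 1484.

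Fzd7 (chr1:59482424-59486955) fell less, from 9.94, 10.3 and 10.1 FPKM in Control to 7.26, 7.22 and 7.19 FPKM in TGFb1. The libraries of a group were nearly alike, so that a log2 fold change of -0.42 ± 0.06 (SE) had an adjusted p of 0.000157. Ryk (chr9:102834917-102907953), a receptor with an inactive kinase domain, was the most abundant of the 50 genes, with 37.6, 37.6 and 37.8 FPKM in Control and 32.1, 33.1 and 35.1 FPKM in TGFb1. All TGF-β1 libraries were lower than all Control libraries, although the change was small, with a log2 fold change of -0.11 ± 0.04 (SE, edgeR adjusted p = 0.0347), and 8 of 21 alternative settings lost this call.

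**Figure D3:**
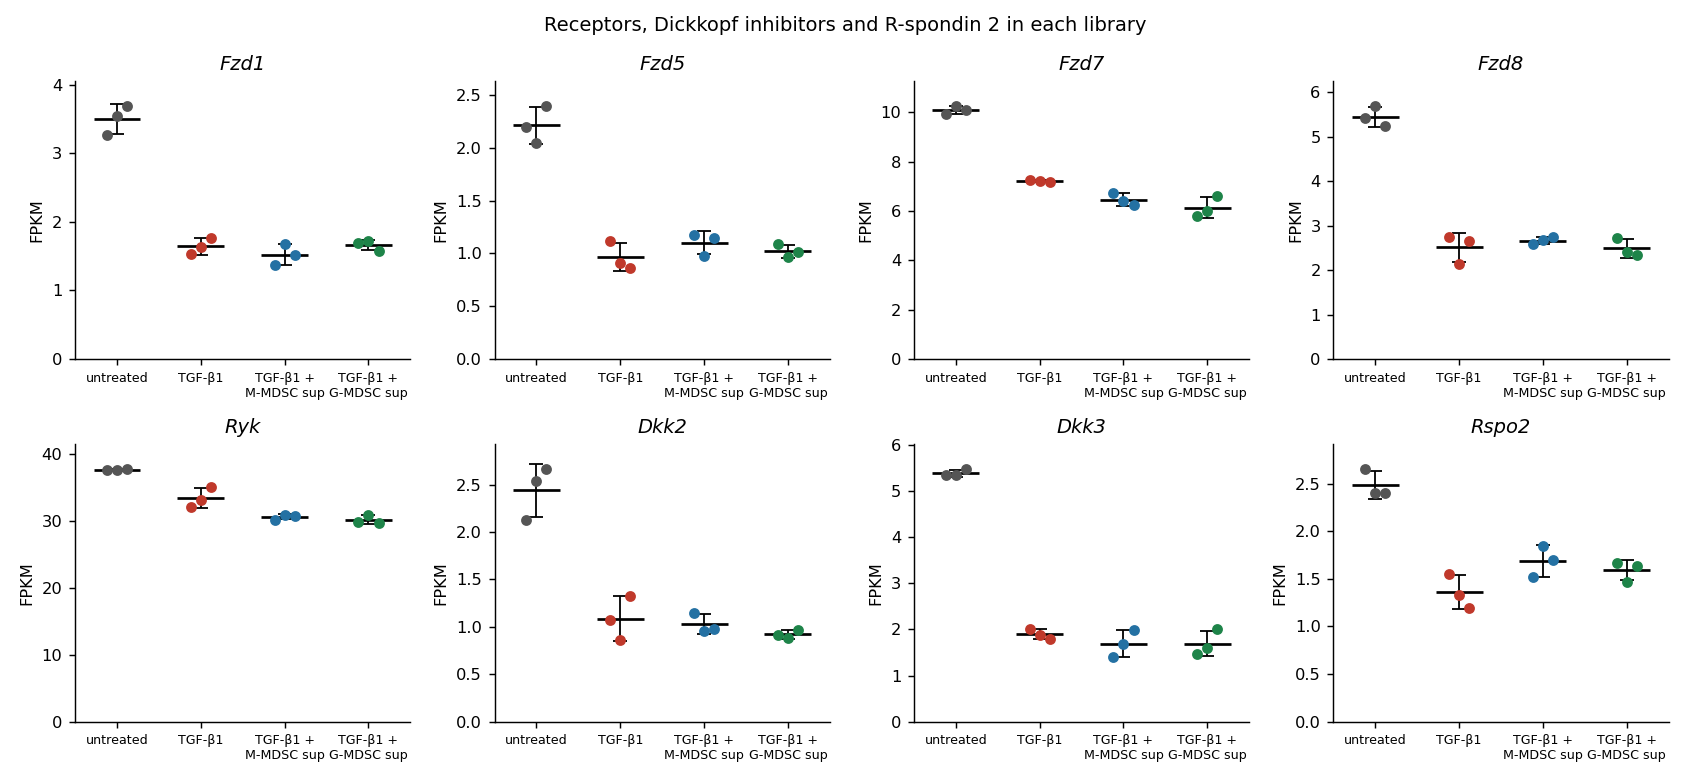
FPKM (y axis) of 5 receptors, 2 Dickkopf genes and Rspo2 in the 4 groups (x axis; sup, supernatant); points are the 3 libraries of a group, bars the mean ± SD. The panels show only genes called lower after TGF-β1, so the separation from untreated follows in part from that choice. In all 8 panels the untreated libraries lie above every other library. For Fzd7 and Ryk the libraries with supernatant lie below those with TGF-β1 alone.

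The other 5 receptors tested did not pass after TGF-β1. Fzd2, next to Ryk in level, was at 16.6, 19.9 and 19.0 FPKM in Control and at 19.8, 21.4 and 20.5 FPKM in TGFb1, which overlap. Its log2 fold change was 0.21 with a 95% interval of 0.04 to 0.38 (edgeR adjusted p = 0.0598). Its share of the summed receptor FPKM was 19.2% ± 1.6 in Control and 24.7% ± 0.94 in TGFb1, as the sum itself was 96.5 ± 1.2 FPKM in Control and 83.2 ± 1.3 FPKM in TGFb1 (SD, n = 3). The co-receptors Lrp5 and Lrp6 had log2 fold changes of -0.16 (-0.34 to 0.02) and -0.26 (-0.52 to -0.003), and Ror1 and Ror2, receptors for signals without β-catenin, had -0.24 (-0.48 to -0.01) and 0.22 (-0.10 to 0.54). The added count-based fit reached 4 more Frizzled genes and called Fzd4 (0.57, 0.28 to 0.87) and Fzd9 (1.83, 0.84 to 2.82) higher after TGF-β1. Fzd4 was at 0.581, 0.601 and 0.570 FPKM in Control and 0.908, 0.827 and 0.766 FPKM in TGFb1. Fzd9 had at most 66 counts in any library, Fzd3 and Fzd6 were not called, and Fzd10 had at most 8 counts.

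Both tested secreted inhibitors fell after TGF-β1, where 17.9% of all genes tested were called lower. Dkk3 (chr7:112116017-112159057), a Dickkopf family member not known to act through Lrp6 as Dkk1 does, was at 5.34, 5.34 and 5.48 FPKM in Control and at 2.01, 1.89 and 1.80 FPKM in TGFb1. Dkk2 (chr3:132085292-132180304), which binds Lrp5 and Lrp6, was at 2.13, 2.53 and 2.67 FPKM in Control and at 1.07, 0.857 and 1.33 FPKM in TGFb1. Neither gene had overlapping groups. The log2 fold changes were -1.45 ± 0.14 for Dkk3 (adjusted p = 1.27e-05) and -1.11 ± 0.16 for Dkk2 (adjusted p = 0.000278). The summed FPKM of the 9 inhibitor genes was 8.96 ± 0.35 in Control and 3.68 ± 0.23 in TGFb1 (SD, n = 3).

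Of the low inhibitors, Sfrp2, a secreted protein that binds Wnt, had 136, 134 and 128 counts in Control and 40, 38 and 51 in TGFb1. The added count-based fit called it lower, with a log2 fold change of -1.57 (-2.29 to -0.86, edgeR adjusted p = 0.00397). Sfrp1, Sfrp4 and Notum, the enzyme that strips the lipid from Wnt, were not called there in TGFb1 against Control, and Wif1 had at most 8 counts.

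In the R-spondin system the ligand and its receptor went opposite ways. Rspo2 (chr15:43020794-43170826) was at 2.65, 2.40 and 2.40 FPKM in Control and at 1.55, 1.33 and 1.20 FPKM in TGFb1. Lgr4 (chr2:109917647-110014257), an R-spondin receptor, was at 1.47, 1.21 and 1.04 FPKM in Control and at 1.74, 1.94 and 1.70 FPKM in TGFb1. Neither pair of groups overlapped. Rspo2 fell by 0.81 on the log2 scale (SE 0.11, edgeR adjusted p = 0.000208) and Lgr4 rose by 0.58 (SE 0.12, edgeR adjusted p = 0.00400). Rspo1 and Rspo3 had at most 17 and 31 counts.

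Of the feedback genes, Axin2 (chr11:108920349-108950783), whose transcription follows β-catenin in many tissues, was at 1.61, 1.75 and 1.18 FPKM in Control and at 0.800, 0.612 and 0.517 FPKM in TGFb1. The groups were apart, with Control replicate 3 the closest to the treated libraries. The log2 fold change was -1.17 ± 0.20 (SE, edgeR adjusted p = 0.000957). Axin1, the constitutive scaffold of the destruction complex, was at 31.3 ± 2.3 FPKM in Control and 31.8 ± 0.84 FPKM in TGFb1 (SD, n = 3) and did not pass (0.08, -0.04 to 0.20). Znrf3, a ubiquitin ligase that removes Frizzled, did not pass either (0.09, -0.24 to 0.41). Rnf43, its relative, had at most 19 counts, and Nkd2 had at most 4.

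Among the 4 nuclear factors, Lef1 (chr3:131110471-131224356) alone passed, where 34% of all genes tested were called in either direction. It was at 1.33, 1.01 and 1.35 FPKM in Control and at 2.28, 2.47 and 2.47 FPKM in TGFb1, with no overlap. It rose 2.03-fold (log2 1.02 ± 0.11, SE, edgeR adjusted p = 2.93e-05). The antisense gene Gm43352, not analysed here, overlaps 13.8% of the exon bases of Lef1. Lef1 is itself known as a target of β-catenin in several tissues, as is Axin2, and the 2 genes moved in opposite directions. Tcf7l1, the most abundant of the 4 and best known as a repressor, was at 4.94 ± 0.29 FPKM in Control and 4.36 ± 0.52 FPKM in TGFb1 (SD, n = 3). Its interval, like those of Tcf7 and Tcf7l2, included 0 (Tcf7l1 -0.38 to 0.13, Tcf7 -0.18 to 0.45, Tcf7l2 -0.05 to 0.33).

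**Figure D4:**
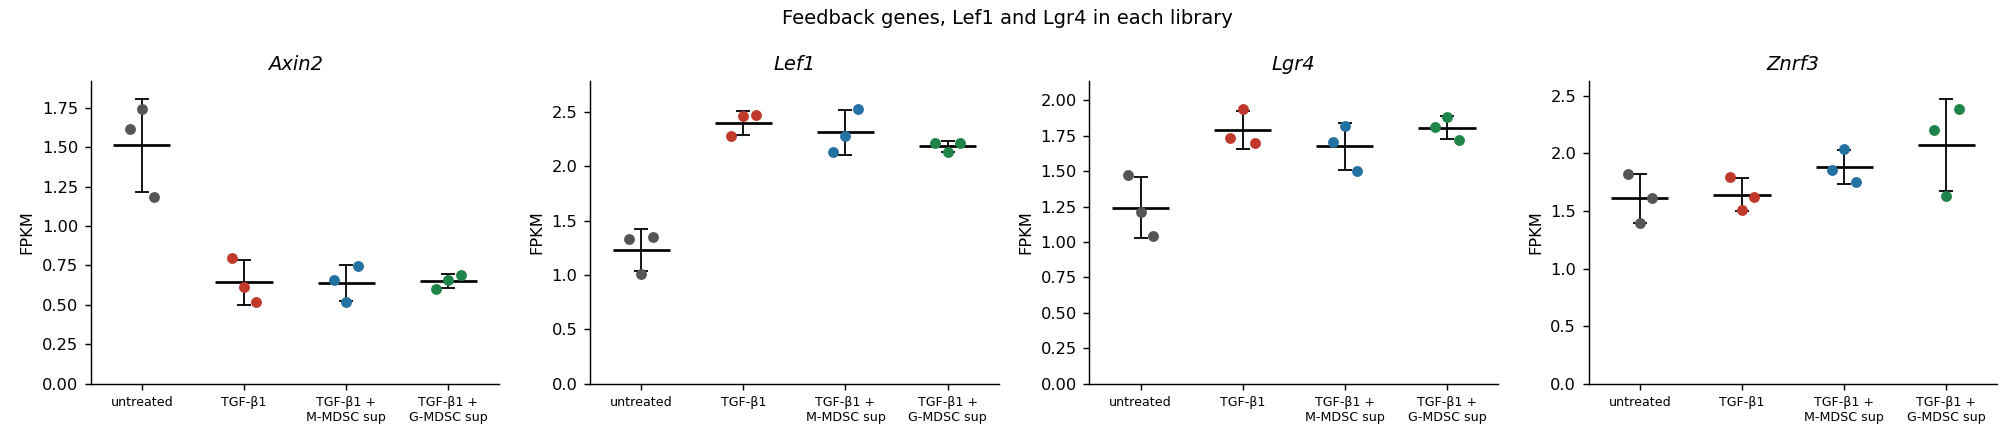
FPKM (y axis) of Axin2, Lef1, Lgr4 and Znrf3 in the 4 groups (x axis; sup, supernatant); points are the 3 libraries of a group, bars the mean ± SD. Axin2 lies lower and Lef1 and Lgr4 higher in every TGF-β1 library than in any untreated one, whereas Znrf3 overlaps between untreated and TGF-β1.

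When a supernatant was added to TGF-β1, the share of the 24 genes called in either direction lay near that of all genes, but every call was lower. With M-MDSC sup, 1 of 24 was lower than in TGFb1 (Ryk) and 0 were higher, where 1.95% and 2.83% of all genes tested were called lower and higher. With edgeR, 4 were lower and 1 higher at an unadjusted p under 0.05, where 9.15% and 7.57% of all genes were, and DESeq2 and limma called 0 higher. With G-MDSC sup, 2 of 24 were lower (Fzd7 and Ryk) and 0 higher, where the background was 2.46% lower and 3.1% higher. At an unadjusted p under 0.05, edgeR had 6 lower and 0 higher, where 9.25% and 7.91% of all genes were, and DESeq2 and limma again called 0 higher. By the rule of the study 0 of the 24 passed in either comparison, where 2.18% and 2.17% of all genes passed. In the added count-based fit, 0 of the 14 low members were called in either comparison (1 and 2 at an unadjusted p under 0.05), where 3.8% and 4.55% of all genes were called (15.1% and 15.7% at an unadjusted p). Both comparisons share the TGFb1 libraries. The median log2 fold change over the 24 genes was -0.10 with M-MDSC sup and -0.16 with G-MDSC sup, against -0.01 over all genes in each comparison. In the same order, 16 and 19 of the 24 fold changes were negative, where 6485 and 6527 of all 12016 were.

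Ryk was at 30.2, 30.9 and 30.7 FPKM in TGFb1_M and 29.9, 31.0 and 29.7 FPKM in TGFb1_G, where TGFb1 had 32.1 to 35.1. Every library with supernatant was below every one without. The log2 fold change was -0.15 ± 0.04 with M-MDSC sup (SE, edgeR adjusted p = 0.0480) and -0.17 ± 0.04 with G-MDSC sup (adjusted p = 0.0201). Without TGFb1_M replicate 3 the first was -0.15 with an adjusted p of 0.130, and 18 of 21 alternative settings lost that call. The second was lost in 7 of 21, where its adjusted p reached 0.158.

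Fzd7 was at 5.79, 5.99 and 6.62 FPKM in TGFb1_G and 6.75, 6.40 and 6.25 FPKM in TGFb1_M, against 7.19 to 7.26 in TGFb1. Both sets of libraries lay below TGFb1. The log2 fold change was -0.26 ± 0.06 with G-MDSC sup (SE, edgeR adjusted p = 0.0202), a call lost in 7 of 21 alternative settings (adjusted p up to 0.115). With M-MDSC sup it was -0.18 ± 0.06 (adjusted p = 0.116).

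With all libraries, edgeR called none of the 14 genes that TGF-β1 had moved back towards Control, whereas DESeq2 called Wnt9a lower with G-MDSC sup (log2 -0.53), as did edgeR without TGFb1_G replicate 1 (-0.78, adjusted p = 0.00554). Rspo2, which TGF-β1 had lowered, was the 1 gene higher at an unadjusted p under 0.05 with M-MDSC sup, at 1.52, 1.85 and 1.70 FPKM in TGFb1_M and 1.67, 1.47 and 1.64 FPKM in TGFb1_G. Its log2 difference from TGFb1 was 0.29 (0.04 to 0.53, edgeR adjusted p = 0.215) with M-MDSC sup and 0.20 (-0.05 to 0.44) with G-MDSC sup. Against TGFb1, Wnt4 differed by 0.08 (-0.37 to 0.53) with M-MDSC sup and -0.36 (-0.82 to 0.09) with G-MDSC sup. Axin2 differed by -0.03 (-0.47 to 0.41) and -0.01 (-0.45 to 0.43), and Lef1 by -0.08 (-0.31 to 0.16) and -0.16 (-0.40 to 0.07), in the same order. Against Control, Axin2 was at a log2 fold change of -1.20 in TGFb1_M (edgeR adjusted p = 0.000793) and -1.19 in TGFb1_G (adjusted p = 0.000884). By contrast Acta2, the smooth muscle actin gene used as a myofibroblast marker, was 0.53 higher in TGFb1 than in Control and then 0.44 lower with M-MDSC sup and 0.51 lower with G-MDSC sup on the log2 scale.

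**Figure D5:**
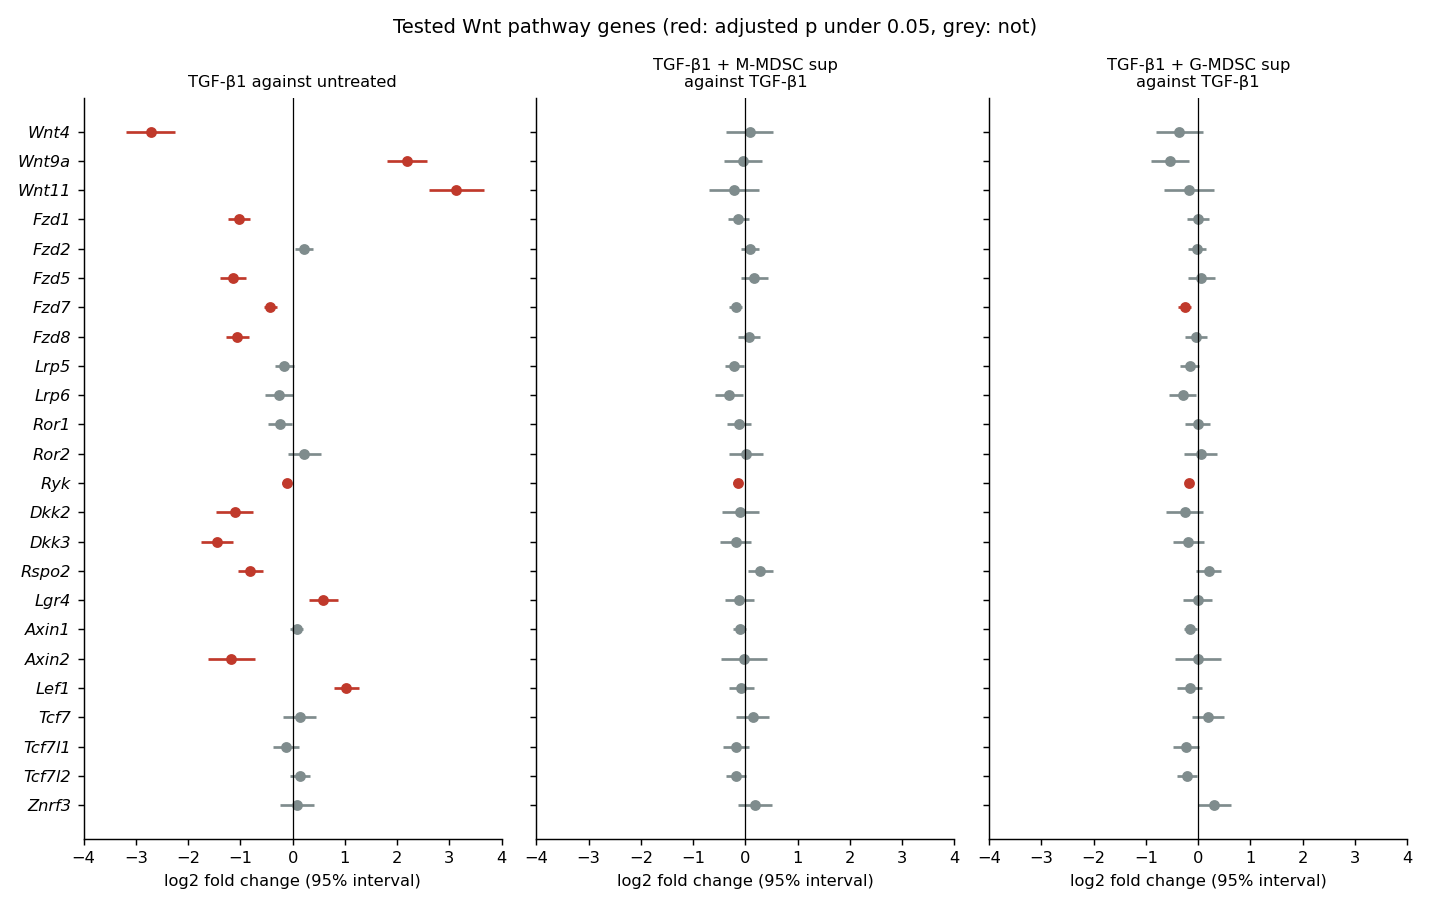
Log2 fold change (x axis) with its 95% interval for the 24 tested genes (y axis) in 3 comparisons: TGF-β1 against untreated, and each supernatant (sup) with TGF-β1 against TGF-β1 alone. Red marks an edgeR adjusted p under 0.05; 14 genes are red on the left, Ryk in the middle, and Fzd7 and Ryk on the right.

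Between TGFb1_M and TGFb1_G, 0 of 24 genes were called by edgeR, DESeq2 or limma, where edgeR called 0.125% of all genes tested. The added count-based fit called 0 of the 14 low members (1 at an unadjusted p under 0.05) and 0.0693% of all genes (5.53% at an unadjusted p). Among the 24, 1 had an unadjusted p under 0.05, where 6.33% of all genes did. This was Wnt9a, at 3.62, 3.44 and 2.82 FPKM in TGFb1_M and 3.07, 2.10 and 1.895 FPKM in TGFb1_G. The groups overlapped. The log2 difference was 0.49 (0.12 to 0.85, edgeR adjusted p = 0.601). Against TGFb1, Wnt9a was -0.54 (-0.91 to -0.18) with G-MDSC sup (adjusted p = 0.0978) and -0.05 (-0.42 to 0.31) with M-MDSC sup. TGFb1_G replicate 1, without which the first was called, was the highest of its group. Over the 24 genes the log2 difference between the supernatants ran from -0.13 to 0.49, and the widest interval bound was 0.90, in Wnt4.

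Set against Control, 18 of 24 genes were called in TGFb1_M (5 higher, 13 lower) and 17 in TGFb1_G (4 higher, 13 lower), where 35.2% and 34.8% of all genes were called. Without TGFb1_M replicate 3 the first count was 19. In the same order, 16.4% and 16.4% of all genes were called higher and 18.9% and 18.4% lower. By the rule of the study the counts were 7 and 9, where 6.98% and 6.8% of all genes passed. Without the 4 genes that could enter only by differing, 14 and 13 of 20 were called at the adjusted p, and 3 and 5 passed the rule of the study. These comparisons share the Control libraries with that of TGFb1. Lrp6 was at 10.1, 7.62 and 8.60 FPKM in Control, 7.77, 6.73 and 6.56 FPKM in TGFb1, 6.04, 5.42 and 5.71 FPKM in TGFb1_M and 5.39, 5.35 and 6.73 FPKM in TGFb1_G. The libraries with supernatant were below all Control libraries. Its log2 fold change against Control was -0.26 in TGFb1 (edgeR adjusted p = 0.114), -0.58 in TGFb1_M (adjusted p = 0.00289) and -0.56 in TGFb1_G (adjusted p = 0.00367). Lrp5 had -0.16, -0.37 and -0.32 in the same order, with adjusted p of 0.161, 0.00404 and 0.00947. Also called against Control, but not after TGF-β1 alone, were Fzd2 (0.305) and Ror1 (-0.365) in TGFb1_M, with adjusted p of 0.0107 and 0.0209, and Tcf7l1 (-0.352) in TGFb1_G, with an adjusted p of 0.0337. None of these 3 was called against TGFb1. In the added count-based fit against Control, 3 of the 14 low members were higher and 1 lower in TGFb1_M. In TGFb1_G, 4 were higher and 1 lower. Both counts of higher genes include Wnt7b. Of all 18761 genes in that fit, 4980 and 5016 were called. Sfrp4, not called in TGFb1, was higher in both, by a log2 of 0.83 (edgeR adjusted p = 0.026) and 0.98 (edgeR adjusted p = 0.0111). A direct difference of either co-receptor from TGFb1 was not called (Lrp6 -0.32, adjusted p = 0.195 with M-MDSC sup, and -0.30, adjusted p = 0.217 with G-MDSC sup).

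Around the 50 genes, a list of other Wnt pathway genes (secretion, transduction, planar polarity, targets) had 51 tested members, of which 19 rose and 5 fell after TGF-β1 (47.1%, against 34% of all genes). The split depended on the tool, with 15 higher and 9 lower by limma on log2(FPKM + 1). Ccn4, a matricellular protein gene named for its induction by Wnt1, was at 14.6, 15.4 and 16.0 FPKM in Control and 55.9, 61.6 and 56.2 FPKM in TGFb1. Its log2 fold change was 1.98 (1.82 to 2.14, edgeR adjusted p = 1.05e-08), and its relative Ccn5 rose by 1.18. The R-spondin receptor Lgr6 was at 0.810, 0.829 and 0.869 FPKM in Control and 2.48, 2.31 and 2.35 FPKM in TGFb1, a log2 rise of 1.57. It reached 1 FPKM in the treated libraries alone and so could enter the test only by differing, and without it 18 of 50 rose and 5 fell. Among the genes called, the largest falls were in Prickle1 (-0.81), a planar polarity gene, and in the co-repressor genes Tle2 (-0.78) and Tle4 (-0.49).

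In this wider list a few genes differed once a supernatant was added. With M-MDSC sup, 5 of 51 were called (1 higher, 4 lower, against 4.78% of all genes). With G-MDSC sup, 4 of 51 were called (1 higher, 3 lower, against 5.56%). Ccn4 was lower, at 47.4, 46.5 and 40.6 FPKM in TGFb1_M (log2 -0.39 against TGFb1, edgeR adjusted p = 0.00847) and 47.4, 43.0 and 46.3 FPKM in TGFb1_G (log2 -0.37, adjusted p = 0.00979). Lgr6 was higher still, at 3.69, 3.52 and 3.03 FPKM in TGFb1_M (log2 0.50, adjusted p = 0.00427) and 3.31, 3.02 and 3.09 FPKM in TGFb1_G (log2 0.38, adjusted p = 0.0202). For both genes every library with supernatant was outside the range of TGFb1. Apcdd1, a membrane inhibitor of Wnt, fell by 0.26 with M-MDSC sup and by 0.37 with G-MDSC sup, and Wls, which carries Wnt proteins to the cell surface, fell by 0.22 and 0.23. Cby1, an antagonist of β-catenin, fell by 0.28 with M-MDSC sup. Without TGFb1_M replicate 3 the count with M-MDSC sup was 2, Lgr6 (0.58) and Ccn4 (-0.32). Between the supernatants edgeR called 0 of the 51, with 1 at an unadjusted p under 0.05, and DESeq2 and limma called 0.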

How the data were processed

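MSCs in 4 groups of 3 libraries were profiled by strand-marked, paired-end poly(A) RNA-seq. Per the labels and the methods of the study, the authors trimmed reads with cutadapt 1.9 and checked read quality with fastp. They aligned the reads to GRCm38 with HISAT2 2.0.4 and assembled them with StringTie 1.3.4d. The tool that made the counts is not given in the sources used here. The authors deposited raw counts and FPKM per gene, and a count of 0 is written there as an FPKM of 0.0001. Such values were read as 0.

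Counts were tested with edgeR 4.0.16 (R 4.3.3; quasi-likelihood F test, 2-sided, TMM scaling, all 12 libraries in 1 fit) for genes with at least 1 FPKM in at least 3 libraries (12016 of 55401). A call is a Benjamini-Hochberg adjusted p under 0.05 over all genes tested, and intervals are 95%. FPKM values are shown per library, and FPKM was tested only as an alternative, as log2(FPKM + 1) and log2(FPKM + 0.1), in limma 3.58.1. The other alternatives were median-ratio scaling, no filter, a count filter, DESeq2 1.42.0, only the groups compared, a replicate block, counts divided by 4, the rule of the study (fold over 2 or under 0.5 and unadjusted p under 0.05) and leaving out each library. Totals of 73977669 to 84565450 counts leave little counting error for genes at 1 FPKM.

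Genes given in full were those called in TGFb1 against Control, in either supernatant against TGFb1 or between the supernatants, and the most abundant of each role, and from the wider list up to 3 in each direction. The members and lists were chosen with earlier results of these data known. Coordinates are those of the deposited table (GRCm38), and promoters are from RefSeq (GRCm38.p6). Counting on the correct strand could not be checked, but antisense genes that overlap members held at most 24 counts where they had a row.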

Additional observations from a re-analysis of the deposited data

How the results depend on the processing

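Of 52 single-gene calls among the members, recomputed under 21 settings each (1092 values), 1038 kept their direction and call, 54 lost the call and 0 reversed. The lost ones were Ryk and Fzd7 with supernatant, Ryk after TGF-β1, Ror1 and Lgr4 in TGFb1_M against Control, and Tcf7l1 in TGFb1_G against Control. Members higher after TGF-β1 numbered 8 with no filter and 8 with the count filter, because more genes were tested. Members lower with M-MDSC sup numbered 0 under median-ratio scaling, no filter, the count filter, both limma fits, only the groups compared, the replicate block and the rule of the study. Members lower with G-MDSC sup numbered 3 with DESeq2 (Fzd7, Ryk and Wnt9a), 1 with no filter, 1 with the replicate block, 0 with only the groups compared and 0 by the rule of the study. By that rule, members called against Control numbered 7 in TGFb1_M and 9 in TGFb1_G. The cause of these changes was not tested.

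Leaving out 1 library at a time gave 4 to 5 members higher and 9 to 10 lower after TGF-β1, 0 to 1 lower with M-MDSC sup, 0 to 2 lower with G-MDSC sup, 16 to 19 and 16 to 18 called against Control, and 19 to 24 of the wider list. With M-MDSC sup the single call was Ryk without TGFb1 replicate 1 and Fzd7 without TGFb1_G replicate 3, and the other 10 fits called 0. Members lower with G-MDSC sup were 0 without TGFb1 replicate 2 or 3, and 1 without Control replicate 2, TGFb1 replicate 1 or any TGFb1_G replicate, the single call being Wnt9a without TGFb1_G replicate 1. Same-numbered libraries did not deviate together (mean correlation of residuals 0.00169 over 18 pairs), and 2 of 12 libraries correlated best with their own number, so the numbers were not taken as pairs, and the block values above are a check only. Low genes limit the data: 44.3% of non-zero counts up to 12 were multiples of 4, and 12 members had at most 20 counts in every library.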
